A study of Mus musculus with 2 samples.

Results

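The 9 genes described here, Elk3, Tgif1, Jarid2, Smad7, Sall1, Zfp521, Rybp, Sulf1 and Smarcad1, were taken by name as genes that lie near binding sites of the cohesin subunit RAD21 at which CTCF is missing. They are 9 of the 22367 protein-coding genes of the GENCODE M1 annotation of the mouse genome build mm9. Missing CTCF at the RAD21 sites entered that choice. The rule uses no value of CTCF at the gene starts or elsewhere in the regions, although the list was drawn up with earlier results of these data known. The region of a gene was its body, from the first to the last annotated base, plus 150 kb on each side. CTCF binding was measured by ChIP-seq in R1/E mouse embryonic stem cells (ESCs), in 1 library made with an antibody against GFP and 1 control library made with goat IgG. The cells carried an additional CTCF gene on a stably integrated bacterial artificial chromosome (BAC), with a GFP-containing tag (LAP) fused to the end of the protein, and resistant cells had been sorted for GFP. Both libraries came from formaldehyde-crosslinked, sonicated chromatin of this line, grown with LIF, so the controls carry the tagged BAC too. The labels also describe the control as input DNA. There was 1 library per antibody and no replicate, so intervals and p-values of tag counts reflect counting alone and compare 2 libraries, not conditions. RAD21 itself was not analysed here.

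The CTCF library held 8391191 tags and the IgG library 7988889, with at most 1 tag per position and strand. The authors' peak caller gave 33756 CTCF summits on the assembled chromosomes, with a median height of 13 overlapping tags and quartiles of 10 and 17. Peaks took 11.4% of all CTCF tags. A summit is the highest point of a peak, and its height is the number of tags piled up there.

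CTCF is a zinc finger protein that binds a long, asymmetric DNA motif, and cohesin is a ring-shaped complex that holds chromatin strands together and extrudes loops. Cohesin often accumulates at CTCF sites, where the motif's direction matters for loop formation, and a minority of cohesin sites lies at enhancers and promoters bound by other transcription factors. Such CTCF-free sites near developmental regulators have drawn interest in ESCs because cohesin together with Mediator can connect enhancers with gene starts.

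The motif matches under the summits that the results turn on are printed on mm9, 5′ to 3′ along the strand that carries the match. The capitals mark the 19-base match, with 5 bases on either side in lower case, and each line gives the position of the match and the distance of the summit from the gene start in the direction of transcription. They are shown because they give each summit its direction.
Elk3 27.6 kb downstream, chr10:92746222-92746240, - strand: catggAGGCCAGAAGAGGGCGTTGgattc
Elk3 19.6 kb downstream, chr10:92754271-92754289, - strand: cagcaTGGCCAGCAGGGGTCGCTCtctgc
Tgif1 6.4 kb downstream, chr17:71196543-71196561, + strand: agcttTGGACTGCAGGGGGCAGAAggtgc
Tgif1 13.4 kb upstream, chr17:71216277-71216295, - strand: aatggAGGCCAGAAGAGGGCGTTCaagtc
Jarid2 75.5 kb downstream, chr13:44900439-44900457, + strand: catggAGGCCAGAAGAGGGCATAGagctg
Jarid2 301.6 kb downstream, chr13:45126411-45126429, + strand: tctgaGGGCCTGCAGGGGGCGCTGcagct
Sall1 99.9 kb downstream, chr8:91468129-91468147, + strand: tgtggAGGCCAGAAGGGGGCACTGgattt
Sulf1 19.4 kb upstream, chr1:12689330-12689348, - strand: cagcgTGGCCAGAAGAAGGCATTAcctcc
Sulf1 145.7 kb downstream, chr1:12854301-12854319, + strand: cataaTGAACACTAGGTGGCACTTcagta
Smarcad1 6.5 kb downstream, chr6:64999287-64999305, + strand: tcagcTCACCAGGTGGGGGCAGCAaatac
Smarcad1 14.8 kb downstream, chr6:65007334-65007352, - strand: tcggtTTACCTGCAGGGGTCGCTGtgctg

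The ChIP primers for the RAD21 sites of the 9 genes were located on mm9 by exact match. The whole products of 3 of them are printed on the plus strand, with the primers in capitals, because they show what lies at a site where no CTCF motif was found.
Tgif1 product, chr17:71178040-71178146, + strand: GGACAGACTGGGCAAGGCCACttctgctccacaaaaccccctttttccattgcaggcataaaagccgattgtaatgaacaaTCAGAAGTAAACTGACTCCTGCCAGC
Jarid2 product, chr13:44773446-44773566, + strand: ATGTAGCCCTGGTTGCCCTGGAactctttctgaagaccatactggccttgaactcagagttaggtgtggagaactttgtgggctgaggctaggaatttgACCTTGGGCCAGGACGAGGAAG
Smarcad1 product, chr6:64973107-64973270, + strand: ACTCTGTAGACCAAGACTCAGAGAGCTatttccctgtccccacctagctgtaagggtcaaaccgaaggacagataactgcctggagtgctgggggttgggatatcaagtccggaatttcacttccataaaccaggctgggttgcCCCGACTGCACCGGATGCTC

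The product of every one of the 9 genes was found in its region, and 0 of 9 overlapped a CTCF peak. Within 150 bp of the product centres, 0 of 9 held a match to the CTCF matrix at p 1e-05. The sites had been picked as lacking CTCF, so these counts and the tags below are a description of the label and carry no test. The pair labelled Smad1 lies 6.58 kb upstream of Smad7 and far from any other member, and it was assigned by that position. In 1 kb around the centres, the CTCF library held 48 tags over the 9 sites and the IgG library 40, a ratio of 1.14 after scaling to library size, with a 95% interval of 0.735 to 1.78. The Smad7 site held 10 CTCF and 3 IgG tags, the highest CTCF count of the 9. The order was opposite at the sites of Sulf1, with 4 CTCF and 11 IgG tags, Elk3 (4 and 5), Sall1 (2 and 4) and Rybp (1 and 2). The Tgif1 site held 8 CTCF and 4 IgG tags, that of Zfp521 8 and 6, Jarid2 6 and 2, and Smarcad1 5 and 3. At the CTCF summit nearest to each site, the same window held 14 to 31 CTCF tags and 2 to 6 IgG tags, so each site lay below its nearest summit in the CTCF library, as summits are called for their height. The intervals of site and summit overlapped for Smad7, Zfp521 and Smarcad1.

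**Figure D1:**
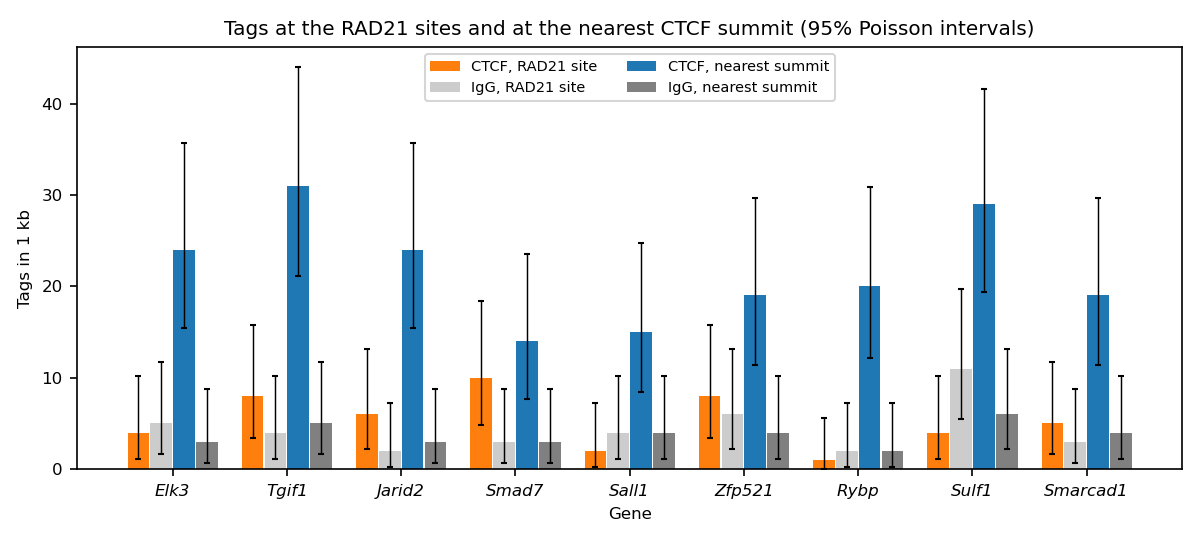
Tags in 1 kb around the RAD21-site product and around the nearest CTCF summit, for each of the 9 genes and both libraries; bars are tag counts and error bars are exact 95% Poisson intervals. CTCF tags at the sites run from 1 (Rybp) to 10 (Smad7), against 14 (Smad7) to 31 (Tgif1) at the nearest summits.

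The 9 sites lay on both sides of the genes. Sites of 4 genes were upstream of the start (Smad7, Smarcad1, Jarid2 and Rybp) and those of 5 downstream, at a median distance of 40.6 kb. The closest was that of Smad7 and the farthest that of Zfp521, 260 kb downstream in an intron of Zfp521 itself. The Sulf1 site also lay in an intron of its own gene, 26.3 kb from the start. The Elk3 site lay 68.8 kb downstream, past the end of Elk3 and in an intron of the neighbour Cdk17, a cyclin-dependent kinase gene. The other 6 sites were intergenic.

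For 5 genes (Jarid2, Smad7, Sall1, Sulf1 and Smarcad1) no CTCF summit lay between the site and the gene start. Among the remaining 4, the 3 summits inside Elk3, 13, 22 and 25 tags high, separated its start from the site. In Tgif1 it was 1 summit of 22 tags, in Rybp 1 of 8 tags, and in Zfp521 2 summits of 12 and 9 tags. With peak scores of at least 100, the genes without a summit between rose from 5 to 7, as Zfp521 and Rybp joined. Counted from the nearest protein-coding transcript start they were 6, as Tgif1 joined. The share over all genes at like distances was not computed, and the sites had been picked as lacking CTCF. These counts therefore describe the 9 genes and do not show whether they are unusual.

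A called CTCF summit within 1 kb of the annotated gene start was found at 0 of 9 members, against 7.91% of all protein-coding genes, so most genes of any kind lack one. Sall1, a zinc finger transcription factor of kidney and limb development that ESCs also express, came nearest, with a motif-free summit 9 tags high 2.79 kb upstream. Smarcad1, a SNF2-type chromatin remodelling ATPase, followed with a summit 8 tags high 4.05 kb inside the gene. In Tgif1, a homeodomain repressor of SMAD-driven transcription, the summit lay 6.36 kb inside the gene and was 22 tags high. The nearest summit was 19.4 kb away for Sulf1, an extracellular enzyme that trims sulfate groups from heparan sulfate, and 19.6 kb for Elk3, an ETS-domain partner of serum response factor. It was 46.3 kb away for Rybp, a subunit of variant Polycomb repressive complex PRC1, and 57.1 kb for Jarid2, a partner of the Polycomb complex PRC2. For Smad7, the inhibitory SMAD that dampens TGF-beta signalling, it was 65.0 kb away. Zfp521, a zinc finger factor that promotes neural differentiation of ESCs, had the longest distance, 105 kb. The median over the 9 genes was 19.6 kb, against 15.6 kb over all genes, whose quartiles were 5.28 and 44.7 kb. The distances therefore spread over most of the range of all genes, from percentile 16.0 for Sall1 to percentile 87.1 for Zfp521.

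Alternative transcript starts changed the call for Tgif1 alone. When any protein-coding transcript start was allowed, 1 of 9 members had a summit within 1 kb, against 9.44% of all genes. Tgif1 has 10 annotated coding transcripts, and the summit of 22 tags lies 0.414 kb from 1 of their starts. Jarid2, with 9 such transcripts, came to 7.07 kb in place of 57.1 kb.

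Tags at the starts were also counted directly, without called peaks. The CTCF count, not scaled to library size, was above the IgG count at all 9. The share of all genes with this order was not counted. Genes without a summit at the start had medians of 7 CTCF and 5 IgG tags. Among the members, within 1 kb on either side, Tgif1 had the most, 15 CTCF and 10 IgG tags. Jarid2 had 9 and 7, Smarcad1 8 and 6, Sulf1 7 and 5, Sall1 6 and 4, Elk3 4 and 3, and Rybp 3 and 2. In each of these the gap was 1 to 5 tags and the intervals of both libraries overlapped. Smad7 had 3 CTCF tags and 0 IgG tags, which leaves its ratio with a lower bound of 0.393 and no upper one. The widest gap was at Zfp521, with 9 CTCF tags against 2 IgG tags, a ratio of 4.28 with an interval of 0.887 to 40.7 (exact binomial test, two-sided, p = 0.0663, Benjamini-Hochberg adjusted p = 0.304 over 21619 genes). By this test 0 of 9 members were called with CTCF above IgG, against 10.4% of all genes with tags, and 0 of 9 with IgG above CTCF, against 0.241%. At an unadjusted p under 0.05 the count was also 0. With 3 to 15 CTCF tags per start, a modest excess could not have been detected at this depth.

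Over the 9 starts together there were 64 CTCF and 39 IgG tags, a ratio of 1.56 with an interval of 1.03 to 2.39. Within 500 bp on either side the ratio was 1.04 (0.552 to 1.98), and without the shift of tags toward the fragment centre it was 1.48 (0.967 to 2.28), so that both intervals hold 1. Scaled by the tags outside peaks it was 1.74 (1.15 to 2.66), an interval that lies above 1. With the main settings, the ratio was 1.69 over all genes, and 1.34, with an interval of 1.33 to 1.35, over the 20598 genes without a summit at the start. Of those genes that had tags, 3.57% were called with CTCF above IgG. The interval of the members holds both values.

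**Figure D2:**
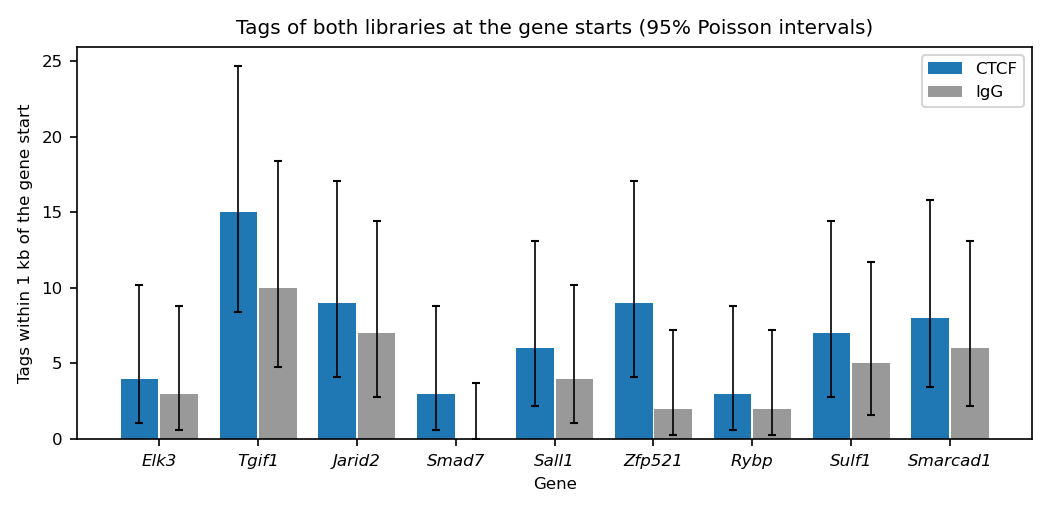
Tags of the CTCF and IgG libraries within 1 kb on either side of the start of each gene, with exact 95% Poisson intervals. The intervals of the pair overlap at all 9 genes, and Zfp521 (9 against 2 tags) shows the widest gap.

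Each gene was framed by the nearest summit outside its body on either side. The frames were 83.4 kb for Tgif1, 103 kb for Sall1, 127 kb for Smarcad1, 148 kb for Smad7, 165 kb for Sulf1, 247 kb for Elk3, 302 kb for Rybp, 571 kb for Jarid2 and 659 kb for Zfp521. Their median was 165 kb, against 112 kb over all genes, whose quartiles were 54.4 and 275 kb, and 7 of 9 lay above the median of all genes. A frame includes the gene body, which ran from 9.34 kb in Tgif1 to 286 kb in Zfp521. The members are long genes: their median region, body and flanks together, was 364 kb, against 315 kb over all genes. How much of the width is gene length was not tested. Of the sites chosen as lacking CTCF, 8 of 9 lay inside the frame, and the part of this choice in the width was not tested either. The width depended on which summits counted: the median was 344 kb (166 kb over all genes) with peak scores of at least 100, 296 kb (141 kb) with motif-bearing summits, and 596 kb (191 kb) with summits at or above the median height. Both framing summits lay within 150 kb of the gene body for 6 of 9 members, against 73.7% of all genes. The exceptions were Jarid2, whose upstream summit stood 348 kb away, Zfp521, with 166 kb upstream and 207 kb downstream of its body, and Rybp, with 196 kb downstream.

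Every member was the only protein-coding gene to start inside its frame. This held for 9 of 9, against 26.6% of all framed genes; the quantity was chosen after the frames had been seen, and it was not tested. The members also had distant neighbours. The nearest start of another protein-coding gene was 75.5 kb (Tgif1) to 451 kb (Zfp521) away, with a median of 273 kb, while the median over all genes was 21.7 kb and the upper quartile 52.7 kb. Sparse surroundings and a lone place in the frame cannot be told apart here. For Jarid2 the next start downstream was that of Dtnbp1 at 273 kb and upstream that of Cd83 at 944 kb. Rybp had Shq1 384 kb upstream and Prok2 561 kb downstream. Smarcad1 had Hpgds 102 kb downstream, and the framing summit on that side, 11 tags high, lay in an intron of Hpgds. Neighbouring genes reached into other frames in the same way: the downstream summits of Elk3, Tgif1, Jarid2 and Smad7 lay in introns of Cdk17, Dlgap1, Dtnbp1 and Ctif.

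**Figure D3:**
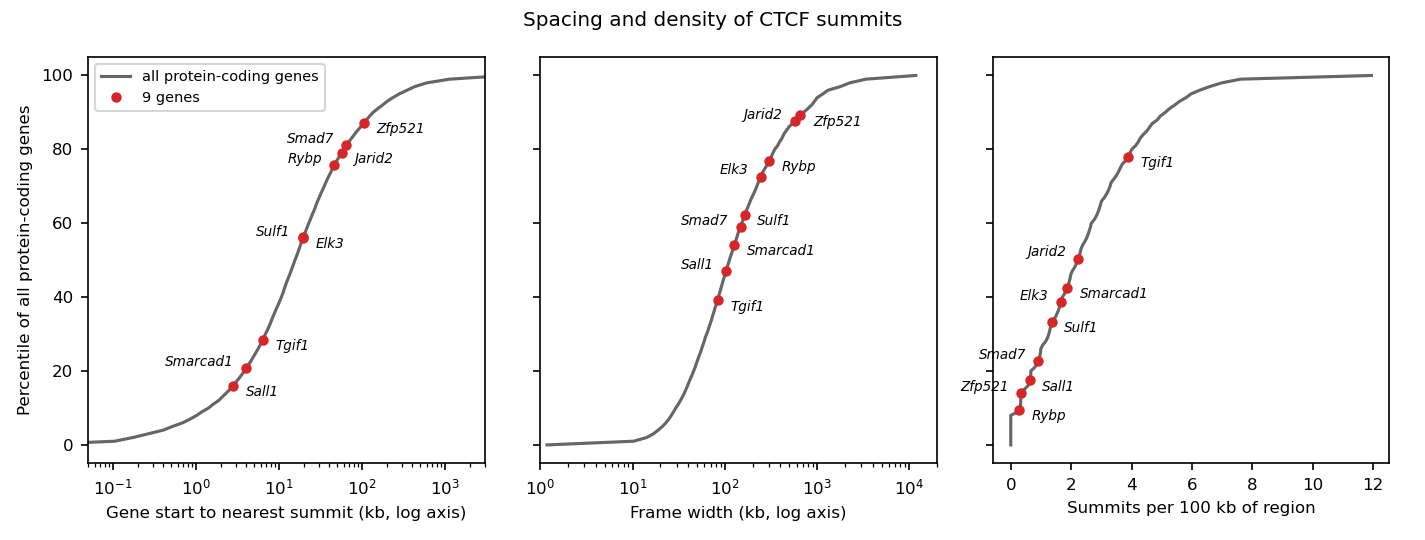
Percentile of each gene among all protein-coding genes (line) for the distance from the start to the nearest CTCF summit, the width of the frame and the number of summits per 100 kb of region; the first 2 axes are logarithmic. The 9 genes (points) run from 2.79 to 105 kb, from 83.4 to 659 kb and from 0.279 to 3.88 per 100 kb.

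The framing summits were low. Their median height was 10 tags, with a range of 7 to 22. At or above the median height of all summits stood 4 of 18, against 50.5% of the framing summits of all genes, which was not tested. These 4 were the upstream summit of Jarid2 with 22 tags, the downstream summit of Sall1 with 21 tags, and the downstream summits of Tgif1 and Sulf1 with 15 tags each. The lowest was the downstream summit of Smad7, with 7 tags.

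Summits inside the genes were taller, a difference that was not tested. There were 16 in 6 members, while Smad7, Sall1 and Rybp held none. Of all protein-coding genes 36.0% hold a summit in the body, a share not matched for gene length. A longer body has more room for summits, and the members are long genes, with a median region of 364 kb against 315 kb over all genes. The median height of the 16 was 15 tags, and 10 of them reached the median height of all summits, against 50.9% of the summits in all gene bodies. Elk3 held summits of 25 and 22 tags in introns 19.6 and 27.6 kb from its start, both with a motif along the gene, and a lower one of 13 tags without a motif at 37.6 kb. In the 300 bp around each of the taller pair the CTCF library held 30 tags and the IgG library 1. Smarcad1 held 4, of 8, 22, 16 and 16 tags, and those at 6.55 and 14.8 kb carried motifs that point toward each other. Jarid2 also held 4, of 9, 7, 20 and 14 tags, of which the 2 taller ones, at 75.5 and 104 kb, likewise pointed toward each other. Sulf1 held 1 of 25 tags in an intron and 1 of 8 tags in an exon, 119 and 124 kb from the start and both against the gene. The tallest summit of all 9 regions, 36 tags, lay 302 kb from the Jarid2 start and 109 kb past its end, where the CTCF library held 38 tags in 300 bp and the IgG library 0.

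**Figure D4:**
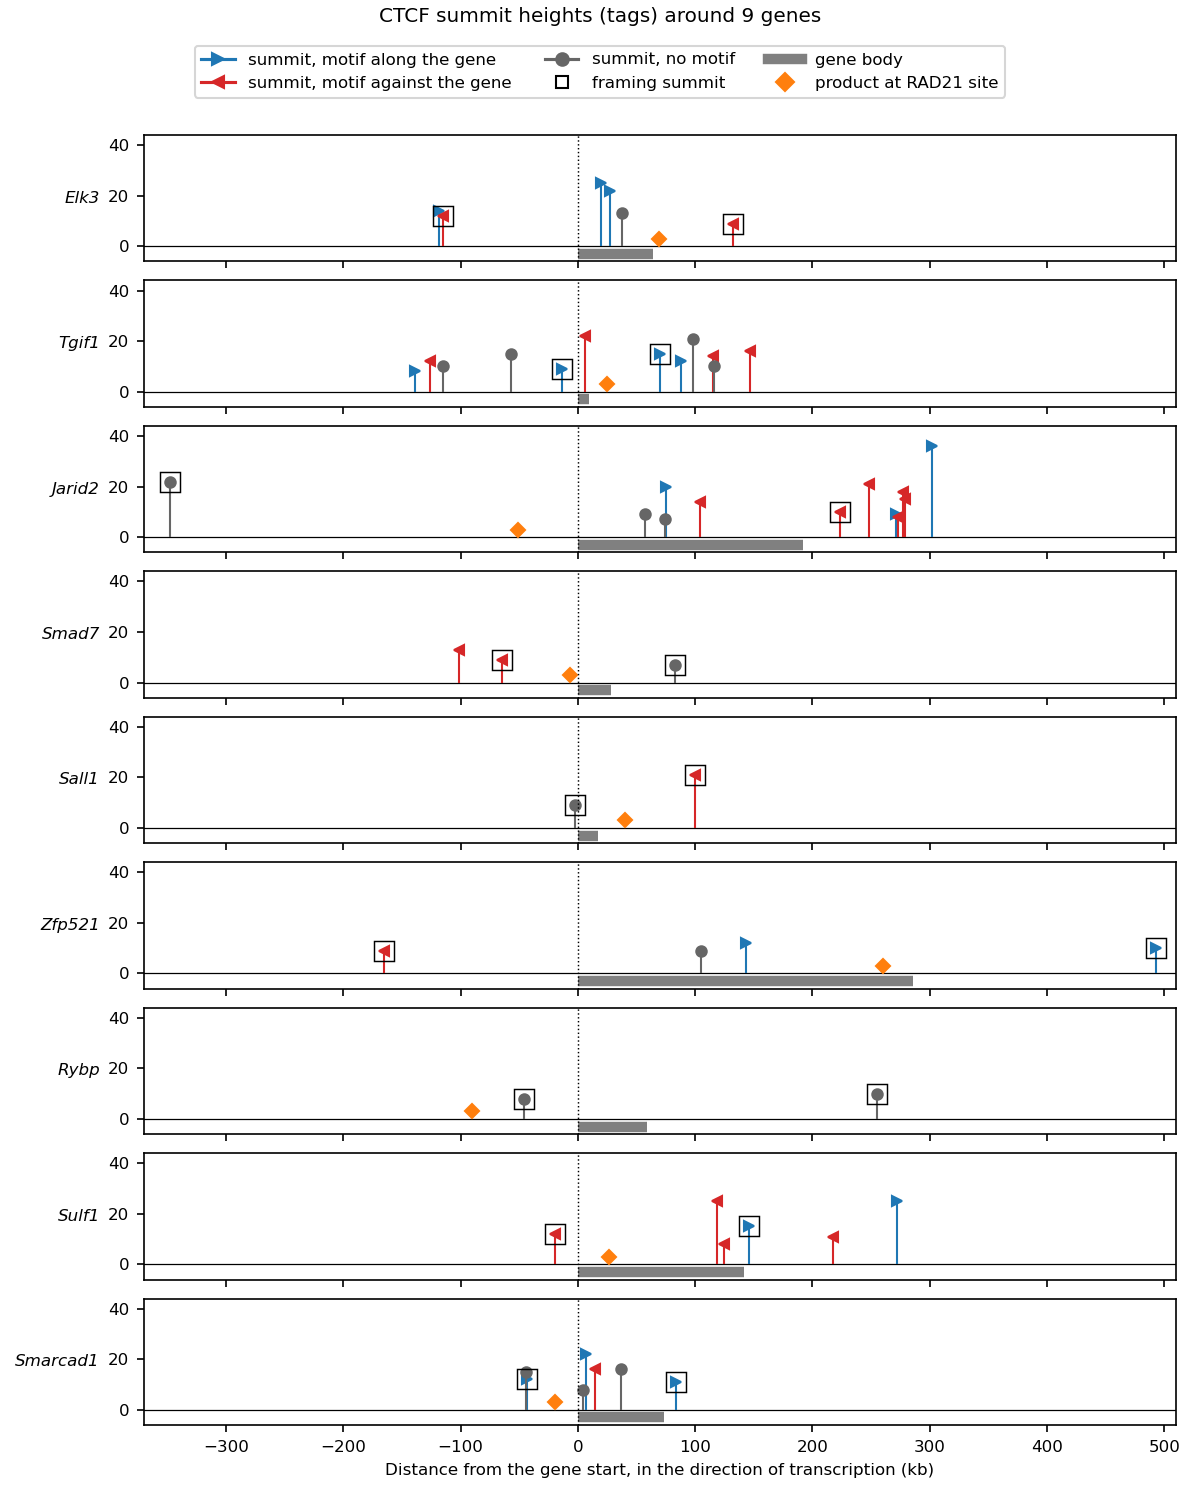
CTCF summits around the 9 genes by distance from the gene start in the direction of transcription (kb); stems give the height in tags, arrowheads the direction of the motif, squares the framing summits, grey bars the gene body and diamonds the RAD21-site product, drawn at a fixed height. No stem stands within 1 kb of a gene start; the wide frames of Zfp521 (659 kb) and Jarid2 (571 kb) can be seen, beside the narrow frame of Tgif1 (83.4 kb).

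The framing motifs of 0 of 9 members read toward each other, against 15.8% of all framed genes. In Elk3, Tgif1 and Smarcad1 they read in the same direction, against 25.7%. In Sulf1 and Zfp521 they read away from each other, against 13.3%. The other 4, Jarid2, Smad7, Sall1 and Rybp, had no motif under at least 1 framing summit, against 45.3%. The count changed with the rule for a motif. When summits without a motif were passed over, an alternative added after seeing the data, the motifs of Rybp, Sall1 and Jarid2 did read toward each other, across 609, 538 and 648 kb, and 27.7% of all genes had such a pair.

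Over the 9 regions there were 50 summits, 7 to 36 tags high with a median of 12.5. A motif lay under 36 of them, or 72.0% (95% Wilson interval 58.3 to 82.5), against 72.7% of all summits. The interval takes the 50 summits as independent, although many share a region, so it may be too narrow. Of the 36 motifs 16 read along the gene and 20 against it. The regions were unequal in number of summits. Tgif1 had 12, or 3.88 per 100 kb, and Jarid2 11, or 2.24 per 100 kb. Smarcad1 had 7, Elk3 and Sulf1 6 each, and Smad7 3. Sall1 and Zfp521 had 2 each and Rybp 1, or 0.279 per 100 kb, at percentile 9.29 of all genes. The median was 1.36 per 100 kb, against 2.22 over all genes, and 7 of 9 lay below that value. Whether choosing genes near sites that lack CTCF has a part in this was not tested.

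Many of the motif matches shared a core. The most frequent sequence of motif positions 4 to 15 (counted from 1 at the 5′ end of the match) over all summits was CCAGAAGAGGGC, carried by 3983 of 24528 matches, or 16.2%. It was carried by 11 of the 36 matches in the 9 regions, or 30.6%, with either strand counted. Tgif1 had 4 of these, Jarid2 3, Smad7 2, and Elk3 and Smarcad1 1 each. The lines printed for Elk3 at 27.6 kb, Tgif1 upstream and Jarid2 at 75.5 kb hold it. This core was looked at after the sequences had been seen, and the difference was not tested.

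Away from the peaks, the level against the control depended on the scaling. With peaks left out there were 13042 CTCF and 12576 IgG tags over the 9 regions, a scaled ratio of 0.987 with an interval of 0.963 to 1.01, while inside their peaks there were 1392 and 185, a ratio of 7.16 with an interval of 6.14 to 8.40. Over the whole genome, not only near genes, the ratio outside peaks was 0.897, below that of the 9 regions. Beside the regions of all protein-coding genes, with peaks included and before scaling, the members were not raised. Their median was 3.91 CTCF tags per kb against 4.29 over all genes, and 3.50 IgG tags per kb against 3.22. Scaled by the tags outside peaks, the ratio of the regions was 1.10 (1.07 to 1.13). The regions differed among themselves by more than counting error. Tgif1 was highest at 1.47 (1.36 to 1.59), with 5.05 CTCF and 3.27 IgG tags per kb before scaling. Smad7 followed at 1.19 and Jarid2 at 1.09. Sulf1, Sall1 and Zfp521 lay lowest, at 0.873, 0.811 and 0.736 (0.689 to 0.786), and the Zfp521 region held 2.71 CTCF and 3.50 IgG tags per kb. The IgG library alone ran from 3.02 tags per kb in Elk3 to 4.01 in Jarid2, at percentiles 35.5 and 97.1 of all genes. Most members lay in the upper part: Sulf1 at percentile 94.3, Smarcad1 at 91.6, Rybp at 86.2, Zfp521 at 71.7 and Sall1 at 69.4. Tgif1 was at 55.2 and Smad7 at 43.6. Whether this density of the control has a part in the ratios was not tested. The share of a region's CTCF tags that fell in peaks ran from 0.967% in Rybp to 15.4% in Elk3 and in Tgif1.

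The starts of other genes from lists related to the members were counted in the same way, beside 7.91% of all genes with a summit within 1 kb and 10.4% called with CTCF above IgG. Of 18 other genes of TGF-beta and SMAD signalling, 0 had a summit within 1 kb of the start and 0 were called with CTCF above IgG. In this list 1 was called lower, against 0.241% of all genes with tags. It was the receptor gene Tgfbr2, where the CTCF library had 0 tags and the IgG library 8 (adjusted p = 0.0337, exact binomial test with Benjamini-Hochberg adjustment). Of 28 other Polycomb genes 1 had a summit there, Ezh1, a catalytic subunit of PRC2, 0.129 kb from the start. Ezh1 had 18 CTCF tags and 1 IgG tag and was the only gene of its list called higher by the exact binomial test (adjusted p = 0.0016). Of 13 relatives of the members, 0 had a summit and 0 were called in either direction. Of 9 other genes that give a ChIP primer pair its label, 0 had a summit there and 1 was called higher, Zfp503, a zinc finger gene with 17 CTCF tags and 0 IgG tags (adjusted p = 0.000428, exact binomial test). They include Smad1, counted by the label although its pair lies near Smad7, and also counted in the first list. The median distance to the nearest summit was 19.5 kb in the first list, 12.5 kb in the second, 7.53 kb in the third and 8.90 kb in the fourth, beside 19.6 kb for the members.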

How the data were processed

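CTCF (GFP antibody) and control IgG were measured in 1 library each. The authors deposited, per library, 1 line for each aligned 35-base tag on mm9 with a count of 1. The aligner is not given in the sources used here. For CTCF the authors also deposited MACS 1.4 peaks, whose score rises as the p-value falls (the negative log10 of p, multiplied by 10) (lowest deposited score 50), and summits with a signal, the pileup height in tags.

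Tags were shifted by 92 bp (fragment 184 bp). Ratios were scaled by total tags and carry exact 95% intervals. Gene starts were tested with a two-sided exact binomial test and Benjamini-Hochberg adjustment over 21619 genes, on Python 3.11.15, numpy 2.4.6, scipy 1.17.1 and pandas 2.3.3. A CTCF matrix was built from the 192 sequences listed in a supplementary sheet of motifs (pseudocount 1), with matches at p 1e-05 within 150 bp of a summit. Genes were those of GENCODE M1 on NCBI m37 (mm9). All 9 members are named with their frame width, the distance of their nearest summit and their tags at the start. Framing and tallest summits are described singly for some members only. Other protein-coding genes were to be named where they start in or near a frame or belong to the gene lists; the neighbours and hosts of summits were named after their values were seen. The members and lists were chosen with earlier results of these data known. Scripts were tested on simulated data.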

Additional observations from a re-analysis of the deposited data

How the results depend on the processing

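With 1 library per antibody, counting error is the only error of the tag counts that is known. Of 31 alternatives, 22 stayed within the main value's 95% interval or, for counts, within 1.5 times, and 9 moved; the cause was not tested. Members with a summit at the start rose from 0 to 1 with any coding transcript start. With summits at or above the median height, the median frame widened from 165 to 596 kb (112 and 191 kb over all genes). The interval of the main median, 103 to 571 kb, reflects the spread of widths among the 9 genes, which are not replicates. It is so wide that 344 kb, with scores of at least 100, counted as within it. Framing motifs toward each other went from 0 to 2 at a motif threshold of p 1e-04 (20.4% of all genes), to 2 with peak scores of at least 100 (16.5%) and to 3 with motif-bearing summits only. Members alone in their frame fell from 9 to 5 with summits at or above the median height (14.7% of all genes), and were 6 with scores of at least 100 (17.0%) and 8 with motif-bearing summits (20.2%); these 3 and the motif-bearing pairs were chosen after seeing the data. The ratio outside peaks moved from 0.987 to 1.01 with flanks of 100 kb, to 1.10 when scaled by tags outside peaks and to 1.08 with peaks included. No paired analysis was possible because neither antibody has a replicate. The 3 to 15 CTCF tags per start limit what a test there can show.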
